A study of Mus musculus with 4 samples.

Results

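Hes1, Hes5, Hes6, Hey1, Hey2, Id1, Id2, Id3 and Id4 are helix-loop-helix regulators that hold cells in the progenitor state or tune their differentiation. They were chosen by name, and all 9 have a row of their own among the 11747 rows of the deposited table. RNA sequencing was done on 4 libraries of motor neuron cultures grown from mouse embryonic stem cells. All cells come from a derivative of the A172LoxP line that carries a doxycycline-inducible transgene for a transcription factor, so the control cells carry the transgene as well. In both groups embryoid bodies, which are floating cell aggregates, received 0.5 µM all-trans retinoic acid and 1 µM of the hedgehog agonist purmorphamine over 2 days. The group with doxycycline then received 2 µg/mL of it for 2 to 3 more days (libraries 2 and 8), and the control group vehicle (libraries 1 and 7). The labels name no separate clones and do not say whether the 2 libraries of a group are separate cultures, so the p-values rest on a spread among libraries that can be purely technical. No group received doxycycline without the transgene, so an effect of the antibiotic and one of the induced factor cannot be told apart.

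In Notch signalling a ligand on one cell leads to cleavage of the receptor on its neighbour. The freed intracellular part joins the DNA-binding protein RBPJ and switches on Hes and Hey genes, whose products recruit Groucho co-repressors and silence proneural genes. Hes6 stands apart in this family as an antagonist of Hes1 that is made in differentiating neurons. Id proteins lack the basic region that contacts DNA, and they bind E proteins and so keep proneural factors from pairing with them. Id genes are classical targets of BMP signalling through SMAD proteins.

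Promoter sequences on GRCm38.p6 were at hand from RefSeq for 6 of the 9 genes, in 7 windows because Hes6 has a pair of start sites. In the 250 bases before the start, the RBPJ core TGGGAA was found on either strand in 3 of the 7 windows, those of Hes5, Hey2 and Id4. Of all 32851 promoters, 21.6% hold it. These 3 are shown because they join a pair of textbook Notch targets with the member that changed most under doxycycline. Capitals mark the core, which reads TTCCCA where it lies on the other strand.
Hes5, chr4:154960673-154960922, + strand: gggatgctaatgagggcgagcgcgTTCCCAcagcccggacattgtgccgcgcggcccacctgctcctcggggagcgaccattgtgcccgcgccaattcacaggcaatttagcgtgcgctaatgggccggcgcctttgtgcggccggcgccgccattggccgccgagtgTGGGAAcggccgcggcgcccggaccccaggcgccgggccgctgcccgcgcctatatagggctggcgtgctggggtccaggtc
Hey2, chr10:30842784-30843033, - strand: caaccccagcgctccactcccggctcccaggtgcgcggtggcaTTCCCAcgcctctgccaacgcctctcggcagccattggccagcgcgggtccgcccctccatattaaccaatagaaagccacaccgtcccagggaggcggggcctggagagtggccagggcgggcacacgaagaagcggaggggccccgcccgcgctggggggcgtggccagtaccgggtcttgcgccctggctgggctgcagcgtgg
Id4, chr13:48260866-48261115, + strand: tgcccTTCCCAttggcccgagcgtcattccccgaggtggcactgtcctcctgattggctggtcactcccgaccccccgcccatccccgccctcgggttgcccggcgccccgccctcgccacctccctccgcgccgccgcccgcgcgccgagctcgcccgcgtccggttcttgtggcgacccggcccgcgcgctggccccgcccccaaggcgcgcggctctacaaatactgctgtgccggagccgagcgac
The Hes5 window holds the core at 226 and at 82 bases before the start, on opposite strands. Hey2 has it at 207 and Id4 at 245 bases before the start, each on the opposite strand. The sequence GGCGCC, searched here as a SMAD box, was found in 3 windows, against 9.59% of all promoters. It occurred 4 times in that of Hes5 and 1 time each in those of Id2 and Id4. It holds only G and C, and these windows are 71.6% (Hes5), 62.8% (Id2) and 75.6% (Id4) G or C. The share over all promoters was not matched for this. The N-box CACNAG, a site class bound by Hes proteins, was found in 2 windows (Id4 and 1 of Hes6; 36.7% of all promoters) and the E-box CANNTG in 5 (66.2%). All motifs were searched on both strands; the N-box and the E-box both begin with CA but cannot begin at the same base. The Hes1, Hey1 and Id1 promoters were not analysed here. These matches describe letters, and binding was not measured.

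The values are normalized read counts, summing to between 26449555 and 27047458 per library, with an estimated 22434755 to 30235763 reads behind them. Of 9 motor neuron markers 8 were listed, among them Mnx1 and Isl1 in all 4 libraries, as the cell type label has it, but genes of other cell types were abundant too. The 11 listed primitive endoderm markers (of 12) summed to 373597 (library 1) and 729600 (library 7) normalized counts under vehicle. With doxycycline the sums were 277626 (library 2) and 665996 (library 8), so libraries 7 and 8 stand apart from 1 and 2. Most of each sum came from Col4a1, Col4a2, Lama1, Lamb1 and Sparc, so it does not measure how many such cells there were. In library 1 these genes were at 132460, 67247, 65467, 38585 and 57687. The transcription factor gene Gata4 was far lower, at 4460 (library 1) and 7239 (library 7) under vehicle. With doxycycline it was at 3382 (library 2) and 6476 (library 8). The sum of the 7 listed pluripotency markers (of 10) went the other way, with 2652 and 1918 under vehicle against 2337 and 1671 with doxycycline, in the same order. Dppa5a was listed at 1087 and 929 in libraries 1 and 2 against 475 and 386 in libraries 7 and 8. Klf4 lay the other way, at 617 and 432 against 873 and 769, and the remaining 5 were lower in libraries 7 and 8. No listed marker of either kind was at 0, and the part of such cells in the values below was not tested.

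Per kilobase of transcript, Id3 had the highest level of the 9 genes and Hey2 the lowest, with and without doxycycline. Under vehicle the order was Id3 (3410 ± 183, mean ± SD of normalized counts per kilobase, n = 2), Id2 (2371 ± 273), Id1 (2050 ± 22.8), Hes6 (1611 ± 229), Hes1 (746 ± 54.3), Hes5 (658 ± 133), Hey1 (309 ± 0.940), Id4 (254 ± 61.2) and Hey2 (57.0 ± 11.7). In that order Hes1 and Hes5 alone overlapped between neighbours. With doxycycline the order was the same, and Hes6 (1500 ± 364) and Hes1 (1074 ± 251) were the neighbours that overlapped. Id4 and Hey2 came close to each other: the ratio of their mean levels per kilobase was 4.46 under vehicle and 1.28 with doxycycline.

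**Figure D1:**
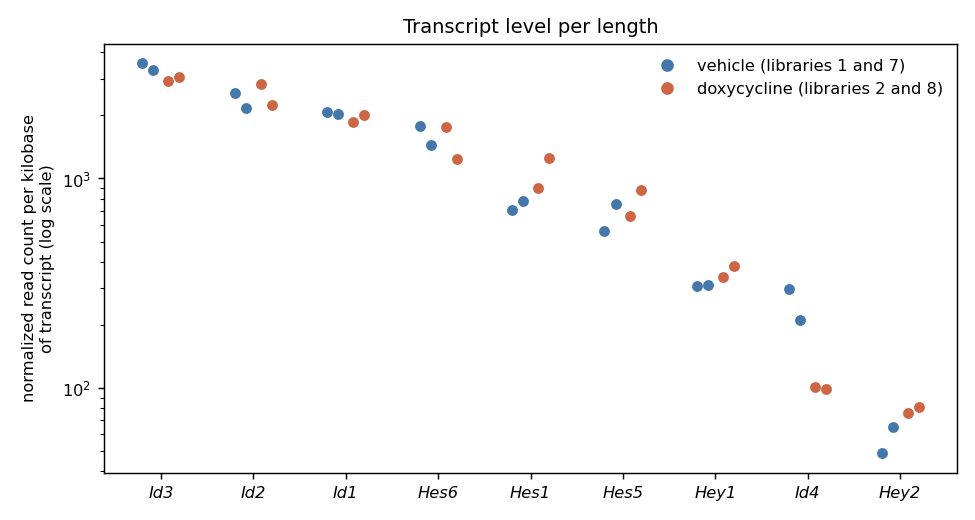
Level of each gene in normalized read counts per kilobase of transcript, on a log scale, with 1 point per library (vehicle left, doxycycline right within each gene). The order from Id3 to Hey2 holds in both groups, and the Id4 points with doxycycline lie near those of Hey2.

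The comparison of doxycycline with vehicle asks how the regulators respond when the transgene is on. Among the 9 genes, 1 passed the test over all genes: Id4 fell. No member passed as higher (limma); at an unadjusted p under 0.05, 1 was higher (Hes1) and 2 were lower (Id3 and Id4), while 21.1% of all rows reach such a p. Over all 11747 rows 2.37% passed, 0.579% as higher and 1.79% as lower. The groups did not overlap for 6 of the 9, with 3 higher (Hes1, Hey1 and Hey2) and 3 lower (Id1, Id3 and Id4), beside 53.2% of all rows, 26.7% higher and 26.5% lower, so these counts are near the background. Of the 9 changes 5 were above 0, as were 50.6% of all rows, and their median was 0.09 on the log2 scale, beside 0.0024 over all rows. Changes are differences of log2(normalized count + 1), doxycycline minus vehicle, ± the standard error of limma.

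**Figure D2:**
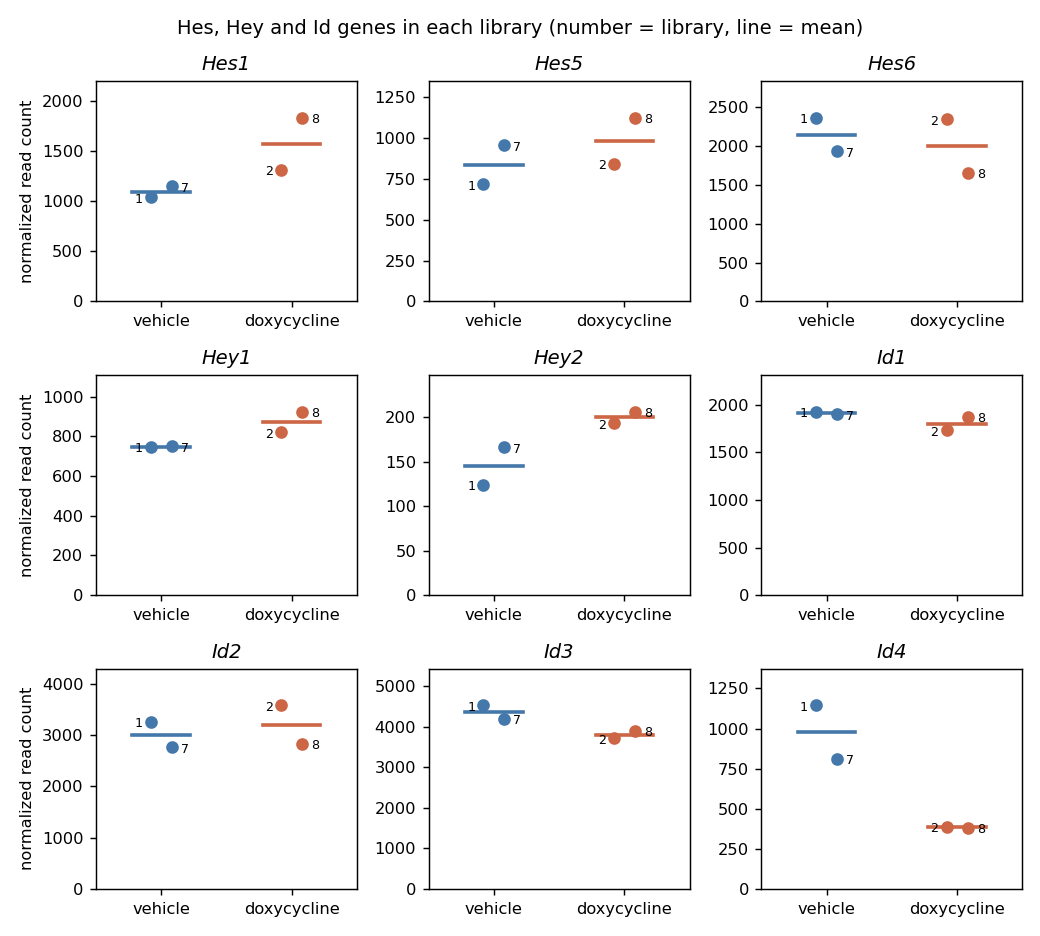
Normalized read count of each gene in each library, with the library number beside the point and a line at the group mean (n = 2); each axis starts at 0. Both doxycycline values of Id4, 388 and 382, lie below both vehicle values, 1145 and 812, while Hes5, Hes6 and Id2 overlap between groups.

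Id4, the Id family member best known from neural progenitors and glial precursors, had 1145 normalized counts in library 1 and 812 in library 7 under vehicle, and 388 in library 2 and 382 in library 8 with doxycycline. Its vehicle libraries differ from each other, but both lie well above the doxycycline libraries, which are nearly equal. The mean fell from 978 ± 236 to 385 ± 4.20 (SD, n = 2), a log2 change of -1.32 ± 0.17 with a 95% interval of -1.74 to -0.90 (limma, adjusted p = 0.0283). That is a level of 0.400 of the vehicle value. By size of change Id4 stands 83rd of the 11747 rows. Its values correspond to an estimated 1281, 756, 329 and 433 reads in libraries 1, 7, 2 and 8. The call was lost without library 2 (limma, adjusted p = 0.0767, change -1.33) or library 8 (adjusted p = 0.117, change -1.31) and without the intensity trend (adjusted p = 0.0687). Over all 13 alternatives the change ranged from -1.57 to -1.07. A fit with an assumed pairing of libraries 1 with 2 and 7 with 8 gave an adjusted p of 1.3e-39 (limma). That value rests on 1 residual degree of freedom and on the spread that the intensity trend gives for genes of like level, not on that of Id4 itself. In the other alternatives with all libraries and the trend kept, the adjusted p was 0.0212 to 0.0308 (limma).

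The other Id genes, which are expressed broadly and respond to BMP, did not pass. Id1 was at 1929 (library 1) and 1899 (library 7) normalized counts under vehicle, against 1732 (library 2) and 1873 (library 8) with doxycycline. Its groups are barely apart, and the change of -0.09 had a 95% interval of -0.27 to 0.10 (limma, adjusted p = 0.553). Id2 was at 3257 and 2766 under vehicle and at 3583 and 2833 with doxycycline. The highest and the second lowest value are both from doxycycline libraries, the groups overlap, and the interval of its change of 0.09 was -0.25 to 0.42 (limma, adjusted p = 0.764). Id3 was at 4523 and 4193 under vehicle and at 3711 and 3896 with doxycycline. Both doxycycline values are the lower ones, with a change of -0.20 and an interval of -0.37 to -0.02 (limma, adjusted p = 0.198). The intervals of Id1, Id2 and Id3 lie wholly above that of Id4, although the difference between the genes was not tested. Of the summed level of the 4 Id genes per kilobase, Id4 made up 3.51% and 2.74% under vehicle, against 1.31% and 1.34% with doxycycline.

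Hes1, the general Notch effector that also oscillates in progenitors, was at 1039 (library 1) and 1152 (library 7) normalized counts under vehicle, and at 1317 (library 2) and 1837 (library 8) with doxycycline. Both doxycycline libraries are higher, but library 8 is far above library 2. The change was 0.51 ± 0.16 with an interval of 0.10 to 0.91 and did not pass over all genes (limma, adjusted p = 0.165). Hes5, a Notch effector typical of neural progenitors, was at 719 and 958 under vehicle and at 844 and 1126 with doxycycline. Library 7 lies above library 2, so the groups overlap, and the interval of the change of 0.23 was -0.23 to 0.70 (limma, adjusted p = 0.534).

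Hes6, the Hes1 antagonist, was at 2367 and 1935 under vehicle and at 2346 and 1659 with doxycycline. Libraries 1 and 2 are high and libraries 7 and 8 low whatever the treatment, and the change of -0.12 had an interval of -0.56 to 0.33 (limma, adjusted p = 0.760). Per kilobase, the ratio of Hes6 to Hes1 was 2.50 and 1.85 under vehicle, against 1.96 (library 2) and 0.993 (library 8) with doxycycline. Library 8 is thus the library in which the antagonist did not exceed Hes1, and the groups overlap in this ratio.

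Hey1, a Notch target that pairs with Hes proteins, was at 746 and 749 normalized counts under vehicle and at 819 and 924 with doxycycline. The vehicle libraries are nearly equal and both doxycycline libraries lie above them, with a change of 0.22 ± 0.10 and an interval of -0.02 to 0.45 (limma, adjusted p = 0.266). Hey2, best known from the heart and arteries and the least abundant of the 9, was at 124 and 166 under vehicle and at 193 and 206 with doxycycline. All doxycycline values are higher, on an estimated 139, 155, 164 and 234 reads in libraries 1, 7, 2 and 8, and the change of 0.47 ± 0.20 had an interval of -0.01 to 0.96 (limma, adjusted p = 0.247). Each of these intervals includes 0, so neither a rise nor its absence is shown.

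**Figure D3:**
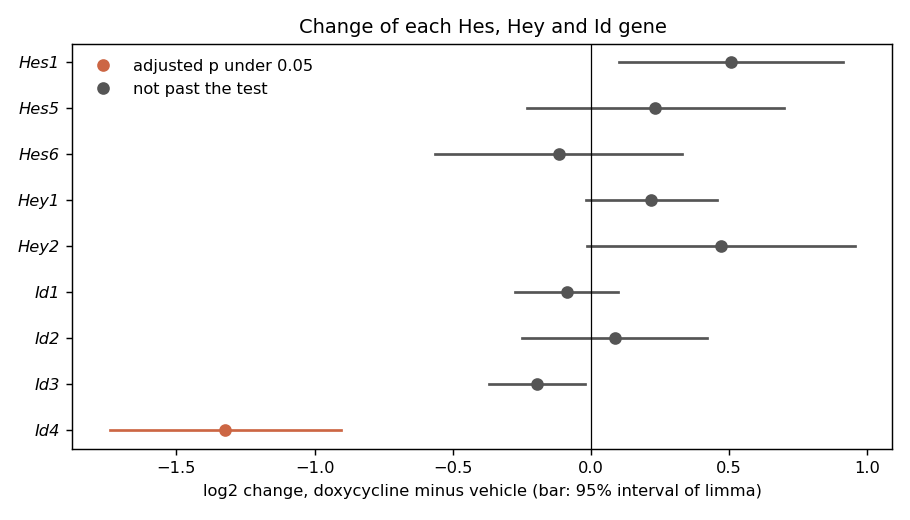
Log2 change of each gene, doxycycline minus vehicle, with the 95% interval of limma; the gene past the test is coloured. The interval of Id4, -1.74 to -0.90, lies apart from those of the other 8 genes, and those of Hes1 and Id3 also leave out 0 but did not pass after adjustment over all genes.

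Libraries 7 and 8 differed from libraries 1 and 2 in some members by more than doxycycline did. This held for 3 of the 9 genes, Hes5, Hes6 and Id2, and for 39.4% of all rows. Hes5 was higher by 0.41 on the log2 scale in library 7 than in library 1 and by 0.41 in library 8 than in library 2. For Hes6 the same differences were -0.29 and -0.50, and for Id2 -0.24 and -0.34. The sums of primitive endoderm and pluripotency markers given above move with the same division of the libraries, and their part in these differences was not tested. Taken between libraries on the same side of that division (2 minus 1, and 8 minus 7), the doxycycline differences were 0.34 and 0.67 for Hes1, 0.23 and 0.23 for Hes5, 0.13 and 0.30 for Hey1, 0.63 and 0.31 for Hey2, -0.29 and -0.11 for Id3 and -1.56 and -1.09 for Id4. They were -0.01 and -0.22 for Hes6, -0.16 and -0.02 for Id1 and 0.14 and 0.03 for Id2. The sign was the same in both differences for every member, but it rests on values near 0 for Hes6 (-0.01), Id1 (-0.02) and Id2 (0.03). The share of all rows with like signs was not computed, so this is not read as a trait of the members. A fit with the division as a block, which the labels do not give as a pairing, rests on these same differences. That fit called Hes1, Hes5, Hey1, Hey2, Id3 and Id4 and not Hes6, Id1 or Id2. It called 3508 of all rows as well and has 1 residual degree of freedom.

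**Figure D4:**
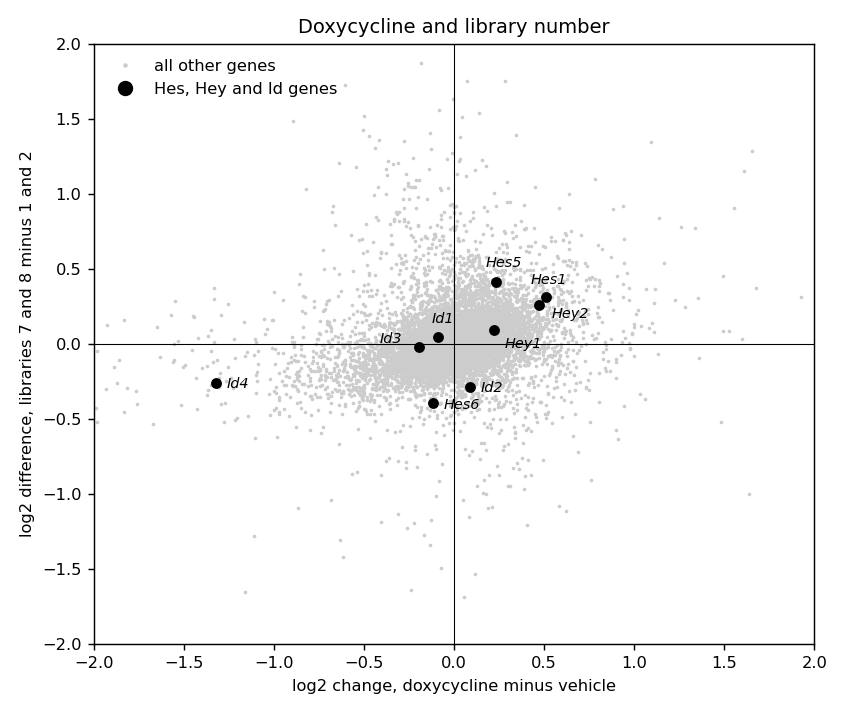
Each point is a gene, with its log2 change under doxycycline on the x axis and its mean log2 difference of libraries 7 and 8 from libraries 1 and 2 on the y axis; 29 genes lie outside the axes. Id4 lies far to the left, while Hes5, Hes6 and Id2 lie farther from 0 along the y axis than along the x axis.

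Across the 4 libraries, the members closest to each other were Id1 and Id3, with a root mean square distance of 0.0637 between log2 profiles centred on each gene's mean, and Hes6 and Id2, at 0.118. Of all rows, 13.3% lay closer to Id1 than Id3 did, and 2.64% closer to Hes6 than Id2 did. Hey1 and Id1 came next at 0.155, with 47.1% of rows closer to Hey1 than Id1 was. Hes1, Hes5 and Hey2 lay 0.165 to 0.168 apart, with 11.5% of rows closer to Hes5 than Hey2. Hes5 and Hey1 were at a like distance, 0.168. Id4 lay at least 0.581 from every other member, the smallest distance being that to Id3. Of all rows, the profiles nearest to Id4 were those of Astn2, which encodes an astrotactin (0.0745), Grid1, a glutamate receptor subunit gene (0.0952), and the phosphodiesterase gene Pde4b (0.103). The nearest to Hes1 were the potassium channel subunit gene Kcnab3 (0.0226), Gstk1 (0.0245) and Rab26os (0.0261). A profile here is 4 values, so close profiles can be frequent, and how many genes lie this close to each other was not counted.

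Among the genes that act upstream of Hes and Hey, single components passed the test. Of the 23 Notch ligand, receptor and processing genes, all listed, 1 rose and none fell. Of their changes 15 were above 0, beside 50.6% of all rows, with a median of 0.12. At an unadjusted p under 0.05, 5 were higher and 2 lower. The receptor gene Notch3 rose by 0.44 ± 0.07 (limma, adjusted p = 0.0458), from 4138 and 3901 normalized counts in libraries 1 and 7 to 5640 and 5233 in libraries 2 and 8. Its call was lost whichever library was left out (limma, adjusted p = 0.0752 to 0.139). Of the 16 genes of the nuclear complex, feedback and modulators, 1 fell and none rose, with 4 higher and 3 lower at an unadjusted p under 0.05 and a median of 0.10. The one that fell was Fbxw7, a ubiquitin ligase subunit that marks the Notch intracellular part for breakdown, by 0.58 ± 0.08 (limma, adjusted p = 0.0379), and its call stood without library 7 only (adjusted p = 0.0804, 0.0604 and 0.152 without library 1, 2 or 8). Of the other Hes and Hey related genes, 2 of 8 were listed and neither passed (limma; 1 higher at an unadjusted p under 0.05). Heyl had a change of 0.46 ± 0.18 and Bhlhe40, a stress and clock responsive repressor, 0.56 ± 0.31.

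BMP pathway genes, the upstream side of the Id genes, gave no call. Of 24 listed ligands, receptors, Smads and inhibitors (of 28), none passed in limma and none had an unadjusted p under 0.05. Of their changes 4 were above 0 and 20 below, with a median of -0.10, while 50.6% of all rows had a change above 0. The smallest p belonged to the inhibitory Smad gene Smad6 (0.41 ± 0.18) and the receptor gene Bmpr1a (0.16 ± 0.07). Of 13 listed E proteins and other bHLH factors (of 20), among them partners and targets of Id and Hes proteins, none passed in limma and none had an unadjusted p under 0.05, with a median of 0.12. The smallest p here belonged to Olig1, a factor of the motor neuron and oligodendrocyte progenitor domain (0.45 ± 0.19), and Nhlh1, a bHLH factor of newborn neurons (-0.29 ± 0.13). Of 9 Groucho and related co-repressor genes 1 fell and none rose in limma, with 2 lower and none higher at an unadjusted p under 0.05 and a median of -0.02. It was Tle4, by 0.51 ± 0.07 (limma, adjusted p = 0.0326), whose call stood without library 7 only (adjusted p = 0.0750, 0.0833 and 0.154 without library 1, 2 or 8).

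**Figure D5:**
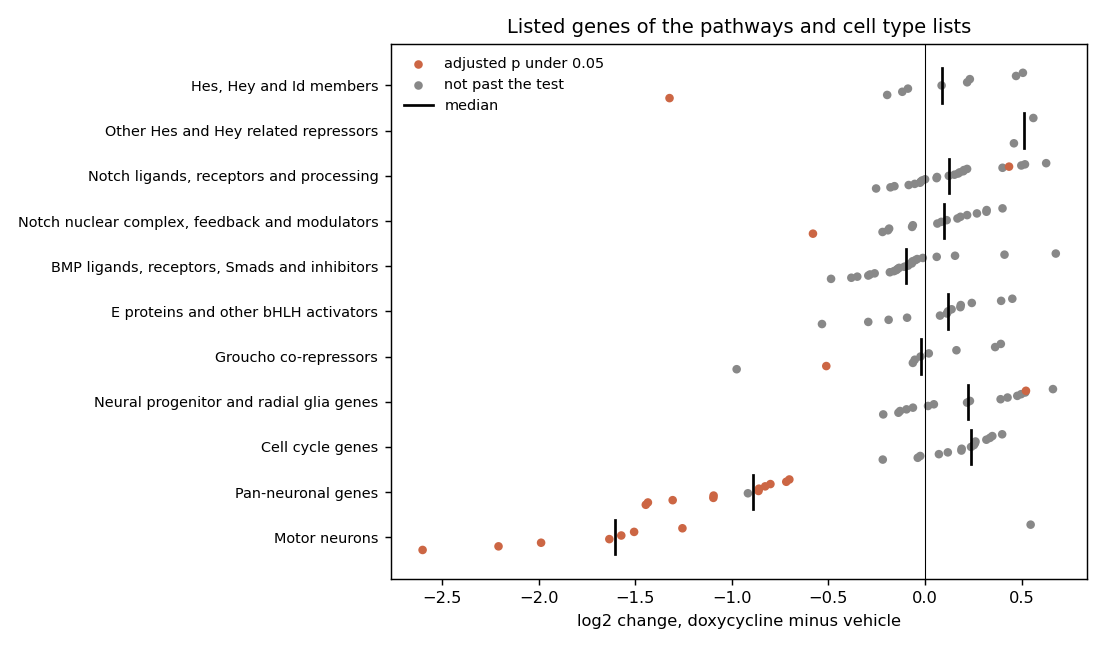
Log2 change of every listed gene by list, doxycycline minus vehicle, with points past the test coloured and a line at the median of each list. Pan-neuronal and motor neuron genes lie mostly below -0.7, where Id4 also lies, and the medians of the other lists drawn lie between -0.10 and 0.51.

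Most listed markers of neurons moved in the same direction as Id4. Of 12 listed pan-neuronal genes (of 13) 11 fell and none rose in limma (0 higher at an unadjusted p under 0.05), with a median of -0.89. The count was 5 without library 8 and 4 without the intensity trend, and 8 without library 1 or 2; Dcx, Elavl3, Elavl4, Snap25, Syn1 and Mapt are the genes lost without library 8. Nefm, which encodes a neurofilament chain (-1.45 ± 0.10), the growth cone gene Gap43 (-1.43 ± 0.11), Stmn2 (-1.10 ± 0.10) and the tau gene Mapt (-0.83 ± 0.08; limma, adjusted p = 0.0612 without library 8) had the smallest p. Their list's summed level was 167866 and 148873 normalized counts in libraries 1 and 7 against 81854 and 66042 in libraries 2 and 8. Of 8 listed motor neuron markers 7 fell and none rose in limma (1 higher at an unadjusted p under 0.05), with a median of -1.60. The higher one was Lhx3 (0.55 ± 0.17, limma, adjusted p = 0.155). It was at 1352 and 974 normalized counts in libraries 1 and 7 against 1819 and 1546 in libraries 2 and 8. Slc18a3 (-1.63 ± 0.08), Ret (-1.51 ± 0.10), Prph (-1.57 ± 0.11) and Mnx1 (-2.21 ± 0.16), genes of transmitter loading, trophic support, cytoskeleton and identity, had the smallest p, and the sum of the list went from 14440 and 13667 to 6004 and 5229. None of the listed markers was at 0 in any library. Their part in the fall of Id4 was not tested, and in a bulk culture fewer neurons and less RNA per neuron cannot be told apart. Of 16 neural progenitor and radial glia genes, where Hes1, Hes5 and Id4 are normally active, 1 rose and none fell, with 7 higher and none lower at an unadjusted p under 0.05 and a median of 0.23. The glutamate transporter gene Slc1a3 rose by 0.52 ± 0.08 (limma, adjusted p = 0.0413), and its call was lost whichever library was left out (adjusted p = 0.0546 to 0.131). Of 15 cell cycle genes none passed in limma, with 6 higher and 1 lower at an unadjusted p under 0.05 and a median of 0.24, Bub1 (0.35 ± 0.08) and Ccnb1 (0.32 ± 0.07) having the smallest p.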

How the data were processed

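CASAVA, TopHat2, HTSeq, DESeq and the build mm9 appear, without version, role or setting, per the submitters' processing notes. The deposited signal is a normalized read count per gene row. The authors appear to have divided counts by a factor per library, because 100% of the values of every column fall within 0.1 of a multiple of a column-specific step. Reads were estimated by dividing by that step, but at most 5 values above 0 in a library reach up to 20 steps, fewer than the 100 taken as needed to treat multiples as recovered reads, so no count test was run. Columns were placed in groups by the treatment initials in their names.

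Values were tested on the scale log2(normalized count + 1) in limma 3.58.1 (R 4.3.3), two-sided, with an intensity trend and Benjamini-Hochberg adjustment over all 11747 rows, at 0.05, with 2 residual and 3.83 prior degrees of freedom. All rows passed the filter on low values (mean of 10 or more). With 2 libraries against 2, exact permutation can reach no p under 0.333, and none is given. The fit was checked on simulated counts. Strand use in counting is not stated, so overlapping genes cannot be separated. Levels per kilobase are approximate and use the GENCODE M21 transcript of each RefSeq accession. Symbols come from the table, or for 375 rows from RefSeq by accession. Alternatives changed the pseudocount (0.5, 5), the filter (none, a mean of 50), the scaling (quantile, TMM-like), the trend, robustness, a replicate block and the libraries used.

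Members, lists and alternatives were chosen with earlier results of these data known. Named are all members, the genes past the test in each list (at most 4, or else the 2 with the smallest p) and the 3 nearest profiles of the 2 members with the smallest p. The induced transgene is not reported here.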

Additional observations from a re-analysis of the deposited data

How the results depend on the processing

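Of 117 alternative values of single members over 13 settings, 105 kept their direction and their side of the threshold. Part of this was fixed beforehand, so the count does not measure robustness. All rows passed the filter, so the fit without it repeats the main fit. The trend, robustness and block settings cannot alter the size of a change, and every member but Id4 was not called to begin with. Id4 lost its call without the intensity trend (-1.32) and without library 2 (-1.33) or 8 (-1.31); leaving out 1 library gave -1.57 to -1.07. The number of members called was then 0 in each, and 0 to 1 over the libraries left out. Hes6 turned to 0.03 without library 1 and 0.13 without library 8 (range -0.37 to 0.13), and Id2 to -0.083 without library 2 and -0.032 without library 7 (range -0.083 to 0.26). Over all genes, 278 calls became 105 without the trend, 419 with robust empirical Bayes and 44 to 494 with 1 library left out. Of the other pathway and marker genes, 23 calls became 11 without the trend and 12 to 30 with 1 library left out. Without the trend the calls of Notch3, Fbxw7, Tle4, Slc1a3 and Ngfr were lost too. A fit less 1 library has 1 library in 1 group, assumed to vary like the others. Over the scalings tried, the median of all genes was at most 0.0165 on the log2 scale. Promoter matches did not change by over 1.5 times in the whole 300-base window.

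A replicate block was fitted with libraries 1 and 2 against 7 and 8, an assumed pairing, since column numbers are not the labels' replicate numbers. Deviations from group means correlated at 0.63 across genes for this pairing. For the other pairing the value is -0.63, since with 2 libraries a group the deviations mirror each other. The correlation restates that libraries 7 and 8 differ alike from 1 and 2, and does not test the pairing. The block called 3508 genes, 6 of the 9 members and 98 pathway and marker genes. Hes1 (0.51), Hes5 (0.23), Hey1 (0.22) and Hey2 (0.47) were then called higher, and Id3 (-0.20) and Id4 lower. It has 1 residual degree of freedom and an infinite prior. Its p-values thus rest on the spread that the intensity trend gives for genes of like level rather than on each gene's own.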

Other observations

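Markers of further cell types that such cultures can hold were few in the table. Of 4 listed endothelial markers (of 10) none passed in limma, with 2 lower and none higher at an unadjusted p under 0.05. They were Cdh5, the endothelial cadherin gene (-0.72 ± 0.15), and the VEGF receptor gene Kdr (-0.85 ± 0.21). Of 5 listed mesoderm and muscle markers (of 12) none passed in limma, with 1 higher and 1 lower at an unadjusted p under 0.05, Des (0.71 ± 0.23) and Foxc2 (-1.10 ± 0.30). Of 3 listed neural crest markers (of 8) the neurotrophin receptor gene Ngfr, which motor neurons also express, fell by 1.43 ± 0.19 (limma, adjusted p = 0.0301), a call lost without library 8 (adjusted p = 0.0911), without the trend and with robust empirical Bayes. Both listed roof plate and dorsal genes (of 10), Rspo1 (0.60 ± 0.28) and Zic1 (0.52 ± 0.30), did not pass, and neither had an unadjusted p under 0.05 in limma. None of the 7 pluripotency or 11 primitive endoderm markers passed, or had an unadjusted p under 0.05, in limma. The smallest p belonged to Klf4 (-0.35 ± 0.30) and Dppa4 (0.41 ± 0.38) in the former list and to Sox7 (-0.51 ± 0.37) and Foxa2 (0.37 ± 0.35) in the latter. Genes with few reads are not listed in the table, so an unlisted marker cannot be called absent.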
